A study of Sus scrofa with 30 samples.

Results

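The third and the seventh day after total body irradiation (TBI, 3d and 7d) were compared with the bleedings taken from the same minipigs before irradiation. The members were chosen by time point and depth, with no use of single miRNA levels: the 3d and 7d plasma libraries that held at least 1000 miRNA counts, which were 4 libraries from minipigs 1 and 2, out of 30 libraries in the whole series. They were set against the 4 libraries drawn from the same 2 animals 7 days (C7) and 1 day (C1) before TBI. All porcine miRNA rows of the count table (ssc-miRNA) were analysed. The 3d and 7d libraries of minipig 3 held 0 and 13 counts and were left out.

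The animals were male Göttingen minipigs, 4 months old, a small laboratory pig, and all of them received 2.2 Gy of TBI from a cobalt-60 gamma source. No agent or genetic change separated the groups. The later bleedings also followed dextrose given under the skin, anaesthesia and repeated blood draws. No unirradiated animal was followed in parallel, so TBI and elapsed time cannot be told apart. C7 with C1, and 3d with 7d, were repeated bleedings of 2 animals, so every p-value measured the spread between these libraries, not between many animals.

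MicroRNAs are short RNAs that pair with messenger RNAs and lower their translation or stability. In plasma they travel in vesicles, in lipoproteins or bound to Argonaute proteins, and they are released by blood cells, platelets, endothelium and solid organs. Several families, such as let-7, are present as many near-identical copies, which differ by few bases. A change in plasma can therefore follow from more or fewer releasing cells or from more or less RNA released per cell, and these counts could not tell those apart. Erythroid miRNAs (miR-451, miR-144, miR-486) also enter plasma when red cells break during sampling.

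The 8 libraries held between 24341 and 260504 counts. The smallest was C7 of minipig 1, and the other 7 held at least 139786. On the log2 scale the pre-TBI totals averaged 16.9 ± 1.57 and the later totals 17.7 ± 0.28 (SD, n = 4 each). The difference of 0.885 did not pass an exact two-sided permutation test within minipigs (p = 0.278, smallest possible p 0.0556). After each library was thinned to 24341 counts, 401.5 ± 7.90 rows were detected before TBI and 401 ± 3.37 at 3d and 7d (SD, n = 4 each). Measured over all rows as the median correlation of log2 values with the other 7 libraries, C7 of minipig 1 (0.780) and C1 of minipig 2 (0.870) stood lowest. The other 6 lay between 0.892 and 0.952. Those 2 libraries are both pre-TBI, and values without them are given beside the results at 3d and 7d together that changed call. The row with the most counts was miR-4332 in every library, with 8.95% to 19.03% of counts. Levels below are CPM, counts scaled to the same total in every library, after TMM scaling, which adjusts for library composition. A miRNA was called higher or lower where the unadjusted p of edgeR's quasi-likelihood test was under 0.05. The p printed beside a miRNA is the one adjusted over all rows, so a called row can have an adjusted p well above that.

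At 3d and 7d together, 18 ssc-miRNAs were higher (4.38% of the rows tested) and 37 were lower (9%). The higher set, ordered by p, was led by miR-215, miR-10a-5p and the endothelial miR-126-5p. It also held miR-192, which shares a seed with miR-215, and the platelet-rich miR-191. The lower set held 3 rows of the miR-376 family, of which miR-376b and miR-376c had counts within 10% of each other. It was led by miR-3613, miR-9809-3p, miR-9844-3p and miR-455-3p. Without both libraries that stood apart none of these 4 leading rows was called lower. With Benjamini-Hochberg adjustment over all rows edgeR called 0 miRNAs (smallest adjusted p = 0.355), against 55 (13.4%) without adjustment. DESeq2, which gave no p for 2 rows, called 22 higher (5.38%) and 59 lower (14.4%) without adjustment, and 1 after it (0.244%), miR-3613 (log2 fold change -2.90, adjusted p = 0.00723). The median log2 fold change over all rows was -0.03. When library size alone was used for scaling, that median was 0.11, and 44.4% of the calls were higher calls, against 32.7% with TMM.

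Of the 18 higher calls, 8 had all 4 libraries above all 4 pre-TBI libraries. The same held for 9 of the 37 lower calls in the other direction. Over all rows, 10 (2.43%) lay wholly above and 11 (2.68%) wholly below. Only 5 of the 55 calls were repeated in each of the 8 fits that left out 1 library: miR-215, which was higher, and miR-3613, miR-9809-3p, miR-376c and miR-9825-5p, which were lower. Leaving out 1 library gave 6 to 18 higher and 10 to 66 lower calls. Higher calls numbered 6 without 3d of minipig 2, 9 without C7 of minipig 2 and 10 without 3d of minipig 1. Lower calls numbered 10 without 3d of minipig 1, 18 without 7d of minipig 2, 21 without C7 of minipig 1 and 66 without C1 of minipig 1.

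**Figure D1:**
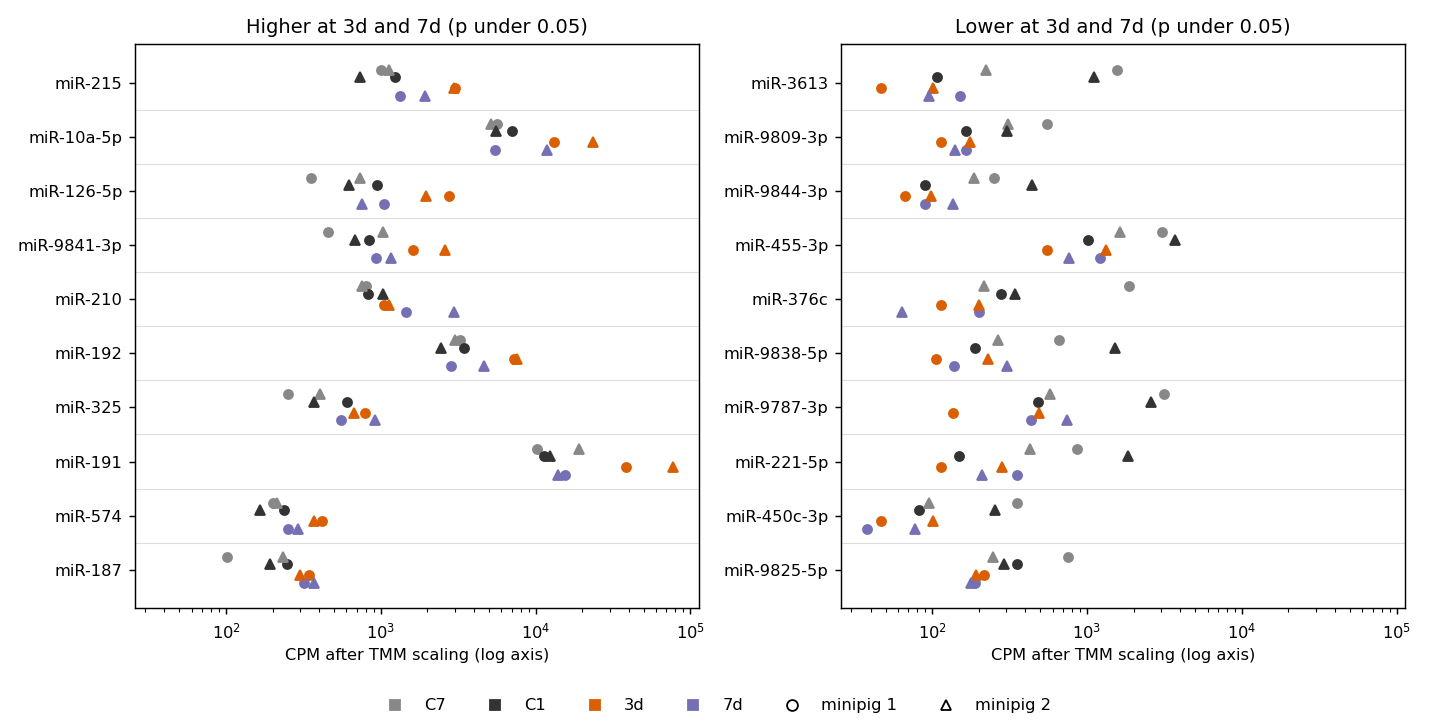
Level of the 10 ssc-miRNAs with the smallest p in each direction, as TMM-scaled CPM on a log axis, 1 point per library; colour gives the time point and shape the minipig. In the left panel the 3d points lie far to the right for miR-191 and miR-126-5p, whereas in the right panel C7 of minipig 1 and C1 of minipig 2 often lie far to the right of the other pre-TBI points.

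MiR-215 and miR-192 are best known from gut epithelium, liver and kidney, where p53 can induce them. Before TBI miR-215 stood at 1009 and 1233 CPM in minipig 1 (C7, C1) and at 1136 and 730 CPM in minipig 2. At 3d it stood at 3021 and 2954 CPM, and at 7d at 1322 and 1919 CPM, in minipigs 1 and 2. All 4 later libraries lay above all 4 earlier ones, with both 3d libraries highest. The log2 fold change at 3d and 7d was 1.17 ± 0.33 (SE, adjusted p = 0.355), and it was 0.96 and still called without C7 of minipig 1 and C1 of minipig 2. MiR-192 stood at 3230 and 3428 CPM before TBI in minipig 1 and at 3026 and 2458 CPM in minipig 2, then at 7265 and 7557 CPM at 3d and at 2838 and 4610 CPM at 7d. Its 3d libraries were the highest of the 8, and its 7d library of minipig 1 was back among the pre-TBI values. It was called higher with a log2 fold change of 0.88 ± 0.34 (SE, adjusted p = 0.355), and not called without C1 of minipig 2 (0.79).

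MiR-10a-5p lies within a HOX cluster and is abundant in smooth muscle, endothelium and intestine. It stood between 5119 and 6988 CPM in the 4 pre-TBI libraries, at 13151 and 23386 CPM at 3d, and at 5497 and 11925 CPM at 7d in minipigs 1 and 2. Both 3d libraries and 7d of minipig 2 exceeded every pre-TBI library, and 7d of minipig 1 did not. The fitted change was 1.21 ± 0.42 on the log2 scale (SE, adjusted p = 0.355), and with both libraries that stood apart left out it was 1.16 and not called. Its other strand, miR-10a-3p, ranged from 50.5 to 3063 CPM before TBI and from 46.9 to 752 CPM later.

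MiR-210 is the miRNA most tightly tied to hypoxia-inducible factor. Its pre-TBI levels were 808, 822, 754 and 1040 CPM, in the order C7 and C1 of minipig 1, then of minipig 2. At 3d it stood at 1055 and 1129 CPM and at 7d at 1450 and 2982 CPM. The groups did not overlap, but the 3d values lay just above the highest pre-TBI value, and 7d of minipig 2 was the highest by far. On the log2 scale the change was 0.94 ± 0.37 (SE, adjusted p = 0.355). It was not called without C7 of minipig 1 (0.91) and was called without both libraries that stood apart (1.07). MiR-210 was the 1 row that was higher at 7d than at 3d, by 1.02 ± 0.41 on the log2 scale (SE, adjusted p = 0.628).

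MiR-574 and miR-187 were called higher at low levels. MiR-574 lay between 167 and 238 CPM before TBI and between 251 and 414 CPM after it, and miR-187 between 101 and 247 CPM before and between 301 and 368 CPM after. Neither overlapped between the groups. The lowest value of miR-187 rested on 2 counts in C7 of minipig 1. Neither row was called without C1 of minipig 2 (log2 fold change 0.59 and 0.64). MiR-9841-3p (log2 fold change 1.03 ± 0.38, SE) and miR-325 (0.80 ± 0.32, SE) overlapped in at least 1 library. Without both libraries that stood apart neither was called (0.74 and 0.54).

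The days were then separated. Against pre-TBI plasma, 27 rows were higher at 3d (6.57% of the rows tested) and 6 were lower (1.46%). At 7d, 14 were higher (3.41%) and 9 were lower (2.19%). None of the rows called higher at 3d was called higher at 7d. The 2 days were compared with the same pre-TBI libraries, so the direct comparison of 7d with 3d is given as the test of their difference. It called 29 rows lower at 7d (7.06%) and 1 higher (0.243%). All 29 were lower at 7d in both minipigs, but they were called on these same libraries, so the shared sign is no separate result. Of the 29, 21 were among those called higher at 3d. Both comparisons use the same 3d libraries, so this overlap is partly built in. Over all rows, 116 (28.2%) were lower at 7d in both animals. Without 3d of minipig 2 there were 12 lower rows, and without 7d of minipig 2 there were 17. With minipig 2 left out altogether, which left 1 library a day, 0 rows were lower and 2 were higher. Of the 14 rows higher at 7d, 13 were highest in the library of minipig 2, and without that library 0 were higher. After adjustment edgeR called 0 rows in any of these day comparisons, with smallest adjusted p of 0.110 at 3d, 0.4995 at 7d and 0.256 for 7d against 3d, whereas DESeq2 called 18, 0 and 14.

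The higher calls at 3d changed little when the 2 pre-TBI libraries that stood apart were left out. Without both of them 26 rows were higher at 3d, 23 of which were among the 27, and 1 was lower. Both 3d libraries exceeded all 4 pre-TBI libraries in 25 of the 27, which were called on these same libraries, and in 47 of all rows (11.4%). DESeq2 called 62 rows at 3d, and its 18 after adjustment were 16 higher and 2 lower. A fit on all 24 libraries of at least 1000 counts called 6 after adjustment, all of them higher and all also among DESeq2's calls. They were miR-342, miR-10a-5p, miR-191, miR-126-5p, miR-215 and miR-28-3p. That fit added the C7 and C1 libraries of minipig 3 to the baseline and took its spread from bleedings of all days. It rests on the same 3d libraries as DESeq2, so the shared calls are not independent. Without either 3d library the counts were lower, with 19 higher calls without minipig 1 and 12 without minipig 2.

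MiR-191 had the largest log2 fold change of the rows called higher at 3d. This miRNA is among the most abundant in platelets and is also present in red cells and leukocytes. It stood at 10145, 11304, 19172 and 12417 CPM before TBI (C7 and C1 of minipig 1, then of minipig 2). At 3d it reached 38253 CPM in minipig 1 and 77346 CPM in minipig 2, and at 7d it stood at 15366 and 14039 CPM. Both 3d libraries were above every other one, and both 7d libraries were inside the pre-TBI range. Its log2 fold change was 2.12 ± 0.49 at 3d (SE, adjusted p = 0.112), 0.15 ± 0.50 at 7d (SE, adjusted p = 0.921) and -1.97 ± 0.60 for 7d against 3d (SE, adjusted p = 0.348). The first and the last of these were called. At 3d and 7d together it was called higher (1.45), but not without C7 of minipig 1 (1.28) or without C1 of minipig 2 (1.42).

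MiR-126 is produced from an intron of EGFL7 and is a hallmark of endothelial cells and platelets. MiR-126-5p stood at 353 and 945 CPM before TBI in minipig 1 and at 737 and 626 CPM in minipig 2. It stood at 2740 and 1971 CPM at 3d and at 1047 and 755 CPM at 7d. The 3d libraries were clearly apart and the 7d libraries were close to the upper pre-TBI values. Its log2 fold change was 1.78 ± 0.38 at 3d (SE, adjusted p = 0.110). At 3d and 7d together its call was lost without both libraries that stood apart (0.96). The other strand, miR-126-3p, lay between 353 and 871 CPM before TBI and between 606 and 1082 CPM later (log2 fold change at 3d and 7d 0.17 ± 0.33, SE, adjusted p = 0.851).

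Let-7 is the family that accumulates as cells differentiate and restrains RAS, MYC and HMGA2 transcripts. Of 9 rows in the list of let-7 and miR-98, 5 were called higher at 3d (6.57% over all rows), 1 was called lower at 7d (2.19% over all rows), and 5 were called lower at 7d than at 3d (7.06% over all rows). The median log2 difference between 7d and 3d was -1.36 over the 9 rows, all of which were negative, against 0.0045 over all rows. Let-7a stood at 606, 230, 520 and 344 CPM before TBI (C7 and C1 of minipig 1, then of minipig 2). It stood at 1485 and 1511 CPM at 3d and at 346 and 418 CPM at 7d. The 3d values of the 2 animals were close to each other and above all pre-TBI libraries, and the 7d values were inside the pre-TBI range. The log2 fold change of let-7a was 1.87 ± 0.40 at 3d (SE, adjusted p = 0.110), and that of 7d against 3d was -1.97 ± 0.48 (SE, adjusted p = 0.256). Let-7i, the weakest expressed of the 5, stood at 238 and 207 CPM at 3d and at 66.3 and 54.6 CPM at 7d, against 82.2 to 151.4 CPM before TBI. It was the let-7 row called both higher at 3d (0.92 ± 0.35, SE) and lower at 7d (-0.95 ± 0.39, SE).

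MiR-26a, which restrains EZH2 and cell-cycle transcripts, stood at 1767, 822, 1465 and 1443 CPM before TBI, at 4510 and 4156 CPM at 3d and at 1341 and 887 CPM at 7d. Its 3d values were more than the highest pre-TBI value in both animals. The log2 difference between 7d and 3d was -1.96 ± 0.42 (SE, adjusted p = 0.256), and the row ranked first by p in that comparison.

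The list of miR-23, miR-24 and miR-27, which is transcribed from 2 paralogous clusters, held 8 rows with positive log2 fold changes at 3d and 7d (median 0.37, against -0.03 over all rows). Of these, 1 was called higher, miR-24-3p (0.84 ± 0.37, SE, adjusted p = 0.355), against 4.38% of all rows. It was not called without C7 of minipig 1 (0.63) or without C1 of minipig 2 (0.78). At 3d alone 3 of the 8 were called higher, against 6.57% of all rows. MiR-27a stood at 1666 to 4517 CPM before TBI, at 9255 and 12262 CPM at 3d and at 3606 and 3082 CPM at 7d. Its counts differed from those of miR-27b-3p by 0.466% over the 8 libraries, so these 2 rows could be the same reads and were taken as uncertain. The counts of miR-23a and miR-23b differed by 8.51%, so these rows could share reads too. The 8 rows may thus hold fewer separate signals.

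**Figure D2:**
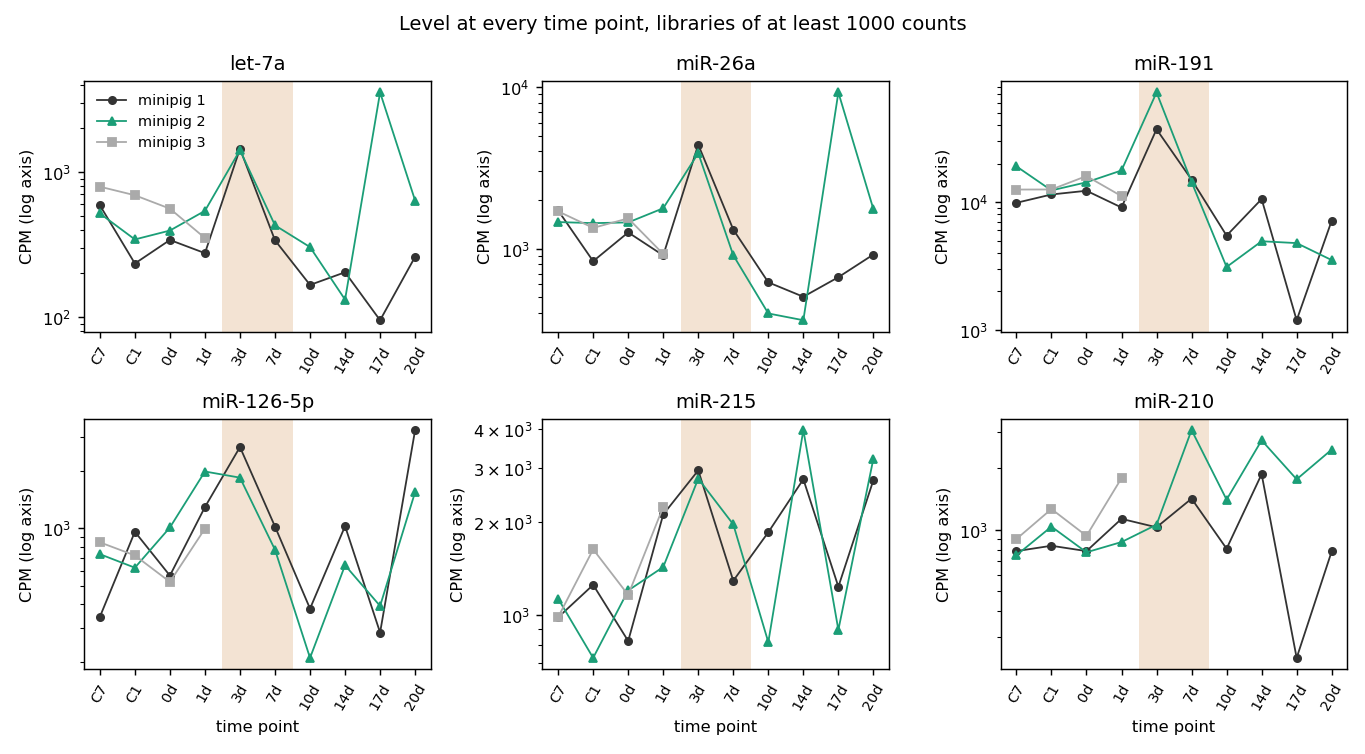
Level of 6 ssc-miRNAs at each time point in each minipig, as CPM on a log axis with scaling over all 24 libraries of at least 1000 counts; the shaded band marks 3d and 7d, and lines join the libraries of 1 animal. Between C7 and 7d, let-7a, miR-26a and miR-191 are highest at 3d in both minipigs and are back near their pre-TBI level at 7d; at 17d, let-7a (3534 CPM) and miR-26a (9235 CPM) of minipig 2 are higher than at 3d, while miR-210 is highest at 7d in minipig 2.

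The blood and tissue marker lists were read next, against 4.38% of all rows called higher, 9% called lower and a median log2 fold change of -0.03 over all rows. In the platelet and endothelial list 2 of 9 rows were higher at 3d and 7d, miR-191 and miR-126-5p, and 0 were lower. The median log2 fold change was 0.32. The summed share of this list was 1.68% to 2.97% of counts before TBI. It was 5.39% and 8.64% at 3d and 2.66% and 3.09% at 7d in minipigs 1 and 2. MiR-191 alone took 3.85% and 7.31% of counts at 3d, against 0.826% to 1.95% before TBI. The other 8 rows together took 1.54% and 1.33% at 3d, against 0.763% to 1.27% before TBI, so most of the difference was in 1 row. Without C1 of minipig 2, 1 of the 9 was called.

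Erythroid miRNAs varied widely between libraries. None of miR-451, miR-144 and miR-486 was called at 3d and 7d (median log2 fold change -0.30). MiR-451, which is processed by Argonaute 2 and marks red cells, stood at 505 and 781 CPM before TBI in minipig 1 and at 9662 and 1895 CPM in minipig 2. It stood at 3302 and 6180 CPM at 3d and at 962 and 750 CPM at 7d. Both 3d libraries were higher than both 7d libraries, and C7 of minipig 2 was the highest of all 8. The 3 rows had a median log2 difference between 7d and 3d of -2.28, and 1 of them, miR-144, was called lower (adjusted p = 0.640). The summed erythroid share was 3.32% and 5.79% of counts at 3d and 1.499% and 1.80% at 7d, so it moved in the same direction as miR-191, let-7a and miR-26a between these days. The part of red-cell RNA in those rows was not tested.

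In the lymphocyte list miR-342 was higher, whereas miR-150, the defining miRNA of mature lymphocytes, was not called. MiR-342 stood at 1413, 732, 1144 and 949 CPM before TBI, at 2267 and 3811 CPM at 3d and at 1014 and 1382 CPM at 7d. The 3d libraries were again the high ones. Its log2 fold change at 3d and 7d was 1.02, and it was not called without C1 of minipig 2 (0.98). MiR-150 was nearly flat, between 504 and 633 CPM before TBI and between 498 and 614 CPM after it (log2 fold change -0.05 ± 0.25, SE, adjusted p = 0.961). Of the myeloid miRNAs only the 2 strands of miR-142 were among the rows analysed, and neither was called.

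In the liver and gut list 2 of 6 rows were higher, miR-215 and miR-192, against 4.38% of all rows, and the median was 0.02. Without C1 of minipig 2, 1 of the 6 was called. MiR-122, the liver-specific miRNA that rises in plasma with hepatocyte injury, stood between 732 and 1325 CPM before TBI and between 586 and 792 CPM later (log2 fold change -0.53 ± 0.28, SE, adjusted p = 0.386). Its groups overlapped through C1 of minipig 1. In the muscle and heart list 1 of 8 rows was lower, miR-1, at 65.8 to 303 CPM before TBI and 36.4 to 65.0 CPM later (log2 fold change -1.10, adjusted p = 0.355). That share is near the 9% of all rows called lower, and miR-1 was not called without C1 of minipig 2 (-0.91). MiR-133b, made in the same muscles, was not called, although its 4 later libraries (495.6 to 540 CPM) lay above its 4 earlier ones (348 to 454 CPM). None of the 2 p53-induced rows was called (median -0.15).

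The inflammatory list held the arms of miR-146 and miR-155, which are induced by NF-kB and feed back on it. Of 5 rows, 2 were lower, miR-146a-3p and miR-155-3p, and the median log2 fold change was -1.67, against 9% called lower and a median of -0.03 over all rows. MiR-146a-3p was not called without C7 of minipig 1 (-0.71). MiR-155-3p stood at 404, 106.9, 65.0 and 69.5 CPM before TBI and at 54.7, 42.6, 28.4 and 13.6 CPM later, in the order of 3d and 7d of minipig 1, then of minipig 2. Its groups did not overlap. The counts behind those values were few, between 3 and 20 per library. Its log2 fold change was -1.61 ± 0.62 (SE, adjusted p = 0.355), and -1.22 and still called without the 2 pre-TBI libraries that stood apart. The other strand, miR-155-5p, was not called (0.26 ± 0.53, SE).

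MiR-146a-5p and miR-146b stood at -1.71 ± 0.77 and -1.77 ± 0.80 on the log2 scale (SE, adjusted p = 0.355 for both) and were not called. Their counts were matched by rows of unrelated miRNAs. MiR-124a, miR-146a-5p, miR-146b, miR-183, miR-186 and the 2 identical rows of miR-490 held between 1124 and 1173 counts in C7 of minipig 1. They held between 7218 and 8726 in C1 of minipig 2 and between 197 and 526 in 7d of minipig 2. Each of these 7 rows differed from at least 1 other by less than 10% when the differences were summed over libraries. Together they took 32.9% of the counts of C7 of minipig 1 and 21.8% of those of C1 of minipig 2, the 2 libraries that stood apart, and 1.43% to 10.1% in the other 6. Their log2 fold changes lay between -1.77 and -1.53, and 3 of the 7 were called lower. How reads that match several miRNAs had been counted was not given in the sources used here, so the levels of these 7 rows are uncertain. With all 7 rows left out, 14 of the remaining rows were called higher and 37 lower.

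The lower calls were then set beside the 2 pre-TBI libraries that stood apart. The number of lower calls also fell without later libraries, to 10 without 3d of minipig 1 and to 18 without 7d of minipig 2. C7 of minipig 1 was the highest of the 8 libraries in 29 of the 37 rows called lower (78.4%), against 115 of all rows (28%). C1 of minipig 2 was the highest in 7 of the 37 (18.9%), near its share of all rows (68, 16.5%). The 37 rows together took 19.9% of counts in C7 of minipig 1 and 11.8% in C1 of minipig 2. They took 5.31% in C7 of minipig 2 and 4.51% in C1 of minipig 1, and 1.78% to 5.76% at 3d and 7d. In the median row called lower, the pre-TBI SD on the log2 scale was 1.18, against 0.60 over all rows and 0.40 for rows called higher. Without C7 of minipig 1, 21 were lower, 19 of them among the 37. Without both libraries that stood apart 4 were lower, 3 of them among the 37, and 8 were higher, 4 of them among the 18. The log2 fold change kept its sign in all 55 when both were left out. The 55 had been called on fits that included the remaining libraries, so the kept sign is no separate result.

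MiR-3613 had the smallest p of the comparison. It stood at 1565 and 106.9 CPM in C7 and C1 of minipig 1 and at 221.1 and 1116 CPM in those of minipig 2. At 3d it stood at 46.9 and 102 CPM and at 7d at 151.6 and 95.5 CPM. C7 of minipig 1 and C1 of minipig 2 were far above the rest, and C1 of minipig 1 was inside the later range. In all 8 libraries its log2 fold change was -2.82 ± 0.77 (SE, adjusted p = 0.355), and without those 2 it was -0.79 and not called.

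MiR-9825-5p was lower in every later library by a small amount. It stood at 757, 353, 247 and 292 CPM before TBI and at 214.95, 190, 190.96 and 177 CPM later (3d and 7d of minipig 1, then of minipig 2). Its groups did not overlap, and the 4 later values were close together. The fitted change was -0.94 ± 0.36 on the log2 scale (SE, adjusted p = 0.355), and -0.62 and still called without the 2 libraries. MiR-9809-3p lay between 164 and 555 CPM before TBI and between 113 and 175 CPM later (log2 fold change -1.04 ± 0.36, SE, adjusted p = 0.355), and without the 2 libraries it was not called (-0.70).

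MiR-376a, miR-376b, miR-376c and miR-494 belong to the large imprinted cluster of the DLK1-DIO3 region, which is expressed from the maternal allele. In the list of 20 rows from that region 4 were lower (against 9% of all rows) and 0 higher, with a median of -0.28. The counts of miR-376c and miR-376b, both among the 4, differed by 9.92% over the 8 libraries, so these rows could share reads. MiR-376c stood at 1867, 280, 217 and 341 CPM before TBI and at 113, 199.01, 199.08 and 63.6 CPM later. Its groups did not overlap, and C7 of minipig 1 was the highest by far. The log2 fold change was -2.01 ± 0.71 (SE, adjusted p = 0.355). It was -1.00 and called without C7 of minipig 1, and -0.77 and not called without both libraries. MiR-376a-5p stood at 3230 CPM in C7 of minipig 1, at 375.5 to 403 CPM in the other 3 pre-TBI libraries and at 114 to 361.6 CPM later. MiR-494 stood at 6410 CPM in C7 of minipig 1, at 954 to 1266 CPM in the other 3 and at 527 to 1180 CPM later. Without C7 of minipig 1 neither miR-376a-5p (-0.76) nor miR-494 (-0.48) was called, and 2 of the 20 rows were lower.

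The miR-374 and miR-545 rows, which come from the X-linked FTX transcript, showed the same dependence. Of 6 rows 4 were lower, against 9% of all rows, and the median was -1.26. MiR-374b-5p stood at 6511 CPM in C7 of minipig 1 and at 520 to 937 CPM in the other 3 pre-TBI libraries. It stood at 285 and 829 CPM at 3d and 7d of minipig 1 and at 450.99 and 50.01 CPM in minipig 2. Apart from C7 of minipig 1 the groups overlapped. Its log2 fold change was -2.33 ± 0.96 (SE, adjusted p = 0.355), and -0.82 and not called without that library. Then 1 of the 6 rows was called. In the brain-enriched list 2 of 18 rows were lower, miR-124a and miR-137 (median -0.40), a share near the 9% of all rows called lower, and without C7 of minipig 1, 0 were. Of its 18 rows, 3 pairs held identical counts: miR-218-5p with miR-218, miR-9-1 with miR-9-2, and miR-129a-5p with miR-129b.

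**Figure D3:**
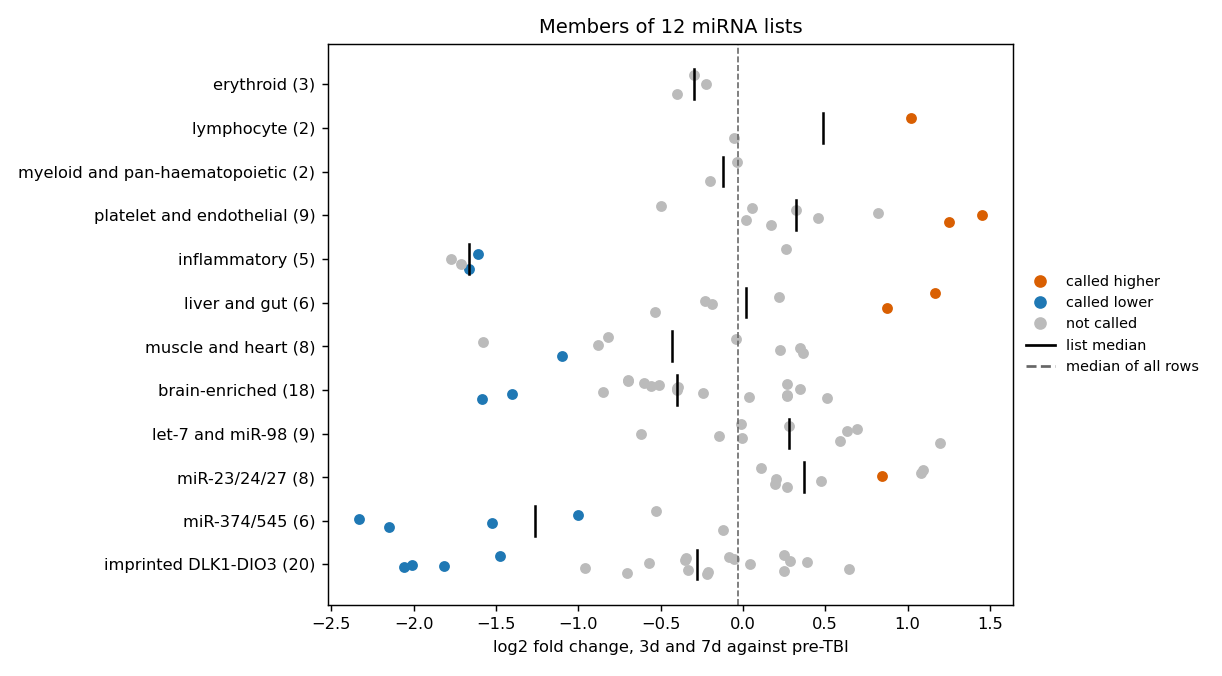
Log2 fold change at 3d and 7d against pre-TBI plasma for the members of 12 miRNA lists, 1 point per ssc-miRNA row, with the list median as a bar and the median of all rows as a dashed line; colours mark the calls. The inflammatory rows lie mostly left of -1, the miR-374 and miR-545 rows all lie left of 0, and the 8 rows of miR-23, miR-24 and miR-27 all lie right of 0.

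**Figure D4:**
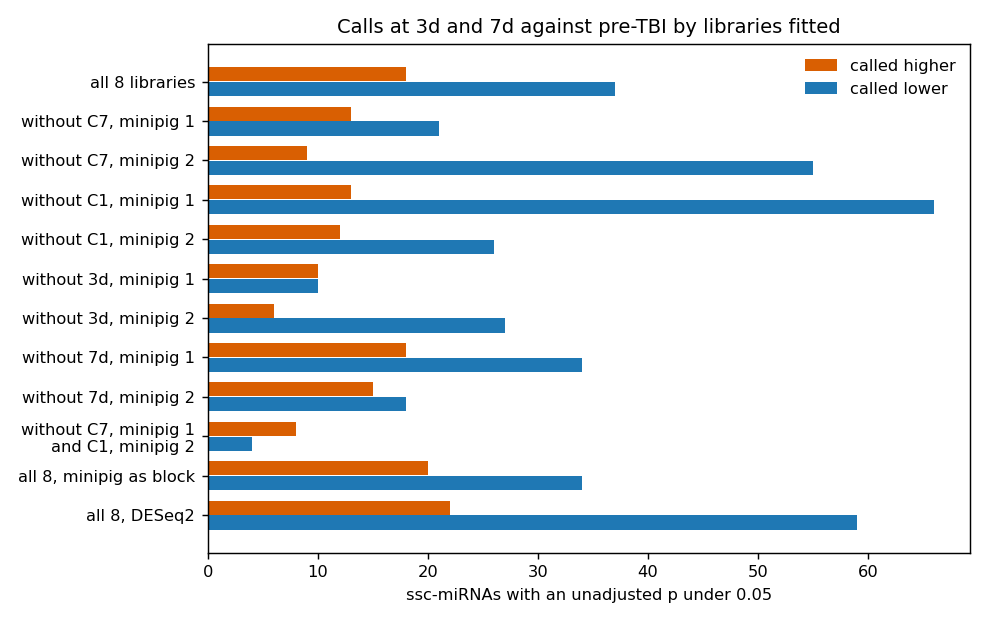
Number of ssc-miRNAs called higher and lower at 3d and 7d when all 8 libraries were fitted, when single libraries or the 2 pre-TBI libraries that stood apart were left out, with minipig as a block, and with DESeq2. The count of lower calls runs from 4, without C7 of minipig 1 and C1 of minipig 2, to 66, without C1 of minipig 1.

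The 2 animals were then compared. The change from pre-TBI to 3d and 7d had the same sign in both minipigs in 271 rows (65.9% of all). Across miRNAs the changes of the 2 animals had a Pearson correlation of 0.488 and a Spearman correlation of 0.470, as a description only, since the rows share libraries. All 55 called rows had the same sign in both, but they were called on these same libraries, so this is no separate test. With minipig as a block 20 rows were higher (4.87%) and 34 lower (8.27%), and 49 of the 55 calls were shared with the fit without it. The change differed between the minipigs in 6 rows (1.46%) without adjustment and in 0 after it by edgeR, with a smallest adjusted p of 0.996, and DESeq2 gave the same 2 counts.

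**Figure D5:**
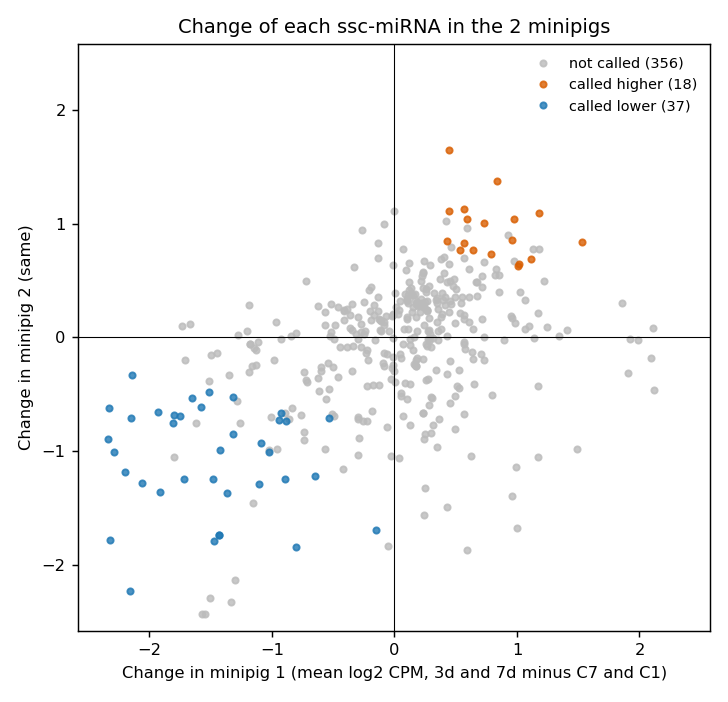
Change of each ssc-miRNA in minipig 1 (horizontal) against minipig 2 (vertical), each as mean log2 CPM at 3d and 7d minus that at C7 and C1; colours mark the calls. All 55 called rows, which were called on these same libraries, lie in the upper right or the lower left quadrant, and many uncalled rows lie in the other 2.

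None of the 5 most abundant rows was called. MiR-4332 ranged from 80849 to 218638 CPM before TBI and from 102521 to 145383 CPM later (log2 fold change -0.16 ± 0.53, SE, adjusted p = 0.931). MiR-484, which is transcribed from its own promoter as a Drosha-independent miRNA, ranged from 30485 to 182640 CPM before TBI and from 58976 to 111059 CPM later. Its log2 fold change was 0.0013 ± 0.62 (SE), and an interval of 1 SE either side spans falls and rises. MiR-9850-5p stood at 107809 CPM in C7 of minipig 1 and at 1828 CPM in 7d of minipig 2, the extremes of its range, and was not called (-1.66 ± 0.79, SE, adjusted p = 0.377).

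Both strands of the hairpin were listed for 78 miRNAs. Among them the more abundant strand was called lower in 12 and higher in 2, and the less abundant strand was called lower in 3 and higher in 1. Over all rows, 9% were called lower and 4.38% higher. Abundance was the mean over these same 8 libraries, so high pre-TBI values in a row also raise it. The median log2 fold change was 0.048 for the more abundant strand and -0.014 for the other. The more abundant strand had the larger value in 37 of the 78 pairs. Both strands were called for 1 hairpin, miR-374b. Of the 55 called rows 43 matched a RefSeq miRNA gene of the assembly Sscrofa11.1 by name, as did 318 of all rows. Among the 43, 2 pairs neighbour each other within 10000 bases. They were miR-545-3p with miR-374a-5p on chromosome X, and miR-376a-5p with miR-376c, listed with an unknown chromosome. All 4 were lower, but neighbouring pairs among all matched rows were not counted for comparison.

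Against the bleedings taken 6 hours (0d) and 1 day (1d) after TBI in the same 2 minipigs, 17 rows were higher at 3d and 7d (4.14% of the rows tested) and 7 were lower (1.7%), and edgeR called 0 after adjustment (smallest adjusted p = 0.762). DESeq2 called 35 rows without adjustment and 0 after it. The later libraries were the same 4 as in the comparison with pre-TBI plasma, so the 2 comparisons are not independent. MiR-215 and miR-192 were not called here (0.78 ± 0.37 and 0.80 ± 0.40, SE), nor was miR-126-5p (0.45 ± 0.49, SE). MiR-10a-5p (1.26 ± 0.41, SE), miR-191 (1.4997 ± 0.55, SE), miR-342 (0.93 ± 0.38, SE) and miR-210 (0.96 ± 0.36, SE) were called higher. MiR-122 stood at 334 and 549 CPM at 0d and 1d of minipig 1 and at 489 and 433.1 CPM in minipig 2. It then stood at 814 and 737 CPM at 3d and 7d of minipig 1 and at 813 and 622 CPM in minipig 2, with the scaling of these 8 libraries. All 4 later libraries were above the 0d and 1d libraries, with a log2 fold change of 0.72 ± 0.22 (SE, adjusted p = 0.762). Against pre-TBI plasma the log2 fold change of miR-122 at 3d and 7d was -0.53 and not called. The neuronal miR-9 was lower (-0.53 ± 0.18, SE, adjusted p = 0.762), from 262 to 325 CPM down to 183.4 to 231 CPM. C1 and C7 differed from each other in 9 rows (2.19%) without adjustment and in 0 after it by edgeR.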

How the data were processed

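Per the labels and the study's methods, plasma small RNA was made into libraries with the TruSeq Small RNA kit and sequenced on a NextSeq instrument. The submitters' processing notes name bcl2fastq, cutadapt and Bowtie2 2.2.3.0. The study's methods also name miRDeep2 for counting known ssc-miRNAs held in miRBase. The authors deposited whole-number read counts per ssc-miRNA for all libraries, with no normalization. How reads that match several miRNAs were counted, and whether molecular identifiers were used, was not given in the sources used here, and the same holds for a FASTA of the miRNAs, so no sequence and no coordinate is printed.

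Samples were grouped by the time point and animal number in the labels. The same number names the same animal, which pairs the libraries. In the check of pairing, deviations of a pre-TBI and a later library from their group means were correlated. The average was 0.145 within an animal (8 pairs, from -0.0931 to 0.388) and -0.154 between animals. Deviations from a group mean cancel out within each period, so the 2 averages nearly mirror each other by construction. The value between animals is therefore no separate result. No 2 libraries were alike within sampling noise (chi-square per degree of freedom at least 21.8 within a period).

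Counts were fitted with edgeR 4.0.16 (quasi-likelihood test, TMM scaling, rows with over 0.5 CPM in at least 2 libraries, which kept every row), without a block. Fold changes were computed with a prior count of 0.125. P-values were adjusted by Benjamini-Hochberg over all rows, and calls use an unadjusted p under 0.05. Alternatives were RLE scaling, library size only, no filter, a mean of at least 10 counts, DESeq2 1.42.0, the likelihood ratio test, the replicate block, thinning to 24341 counts, miR-4332 left out, all libraries of at least 1000 counts, C7 or C1 alone as baseline, and each library or animal left out. Leaving out both pre-TBI libraries that stood apart, the block without C7 of minipig 1, leaving out the 7 rows of near-equal counts, and single libraries left out of the day comparisons were chosen after seeing the data.

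Named miRNAs were the 10 with the smallest p in each direction with a mean of at least 10 counts, the 5 most abundant rows, up to 3 per direction of each further comparison, and members of the lists. The members and lists were chosen with earlier results of these data known. Let-7c, let-7f, let-7g, miR-27a and other rows of single lists were named after their values were seen. The pipeline was tested on simulated counts with known fold changes.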

Additional observations from a re-analysis of the deposited data

Results flagged for a closer look

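The number of rows detected after thinning was 396 in 3d of minipig 1, against 402 and 403 in the other 3d and 7d libraries, and was far from them relative to their range. The log2 CPM of miR-9846-3p in the same library was 9.006, also far below the other 3 later libraries. Of 80 groups of 4 libraries examined in this way 2 stood out, and chance gives about 1 in 20.

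For 5 named rows the change differed between the animals without adjustment, and none did after adjustment (edgeR, adjusted p = 0.996 for the smallest). MiR-9846-3p and miR-676-5p had a log2 change that was 2.18 and 2.12 higher in minipig 2 than in minipig 1. Both had their highest level in C7 of minipig 1, at 4643 and 1968 CPM, against at most 962 and 411.04 CPM in the other 7 libraries. MiR-338 (-2.11), miR-9854-5p (-1.77) and miR-10a-3p (-3.37) had a lower change in minipig 2. MiR-10a-3p stood at 50.5 CPM in C7 of minipig 1 and at 3063 CPM in C1 of minipig 2. The part of these 2 libraries in the differences was not tested beyond the fits that left them out.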

How the results depend on the processing

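For 3d and 7d against pre-TBI, leaving out a library or an animal gave 2 to 18 higher, 10 to 66 lower and 20 to 79 calls in all. With C7 alone as baseline 8 were higher, and with C1 alone 5 were higher and 32 were called in all. Without both pre-TBI libraries that stood apart 8 were higher, 4 lower and 12 called in all. With the replicate block and without C7 of minipig 1, 16 were lower and 29 called. DESeq2 called 59 lower, and 1 after adjustment. The replicate block alone gave 20 higher and 34 lower, and the paired fit moved no count of calls by over 1.5 times.

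At 3d, DESeq2 called 62 rows, 18 of them after adjustment, and all 24 libraries gave 6 after adjustment. Leaving out a library or animal gave 16, without 3d of minipig 2, to 53, without C7 of minipig 2. At 7d, library size only gave 38 and DESeq2 66, and leaving out gave 3 calls without 7d of minipig 2 and 80, 21 of them after adjustment, without minipig 1, against 0 after adjustment in the others. It gave 57 without C1 of minipig 1, 35 without 7d of minipig 1, and 12 and 13 without 3d of minipigs 1 and 2. For 7d against 3d, library size only gave 4 higher and 16 lower, DESeq2 7 higher and 14 after adjustment, and all 24 libraries 3 higher. Leaving out gave 0 to 9 higher, 0 to 37 lower, 2 to 46 in all and 0 to 8 after adjustment, with the most of each without minipig 1, the fewest lower calls without minipig 2, and 0 higher calls without either 3d library or without 7d of minipig 2. Where a day was left with 1 library, that library was assumed to vary like the other groups. Against 0d and 1d, library size only gave 15. The number of rows that differed between the animals lay between 1, without 7d or C1 of minipig 2, and 54, without C1 of minipig 1. The cause of these shifts was not tested.

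The mean difference in detected rows was 1.75 at full depth against -0.5 after thinning, and -3.5 to 2.5 with 1 animal left out. The log2 difference in totals was -0.196 to 1.97 with 1 animal left out. The 20 leading miRNAs kept their direction in all 460 combinations with an alternative, 99 of which lost their call. These rows were picked on these same libraries by p and by the same sign in both minipigs. The kept direction is therefore no separate result. Uncalled abundant rows changed sign. MiR-4332 was 0.0231 with library size only and -0.35 to 0.13 with libraries left out. MiR-484 was -0.0399 with RLE scaling, -0.0398 with DESeq2, -0.00399 with a mean of at least 10 counts, -0.0148 with the replicate block, -0.00798 thinned, -0.0282 with both, -0.00194 without miR-4332, -0.47 with C1 alone as baseline and -0.33 to 0.61 with libraries left out, and -0.60 without both pre-TBI libraries that stood apart. MiR-486 was 0.61 with C1 alone and -0.86 to 0.49 with libraries left out. MiR-9828-3p was 0.0796 with library size only, 0.147 with C7 alone and -0.28 to 0.17 with libraries left out. At 24341 counts, C7 of minipig 1 limits what a row under about 100 CPM can show.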
